A study of Mus musculus with 44 samples.

Results

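The 33 endothelial identity genes are genes whose products mark the cells that line blood vessels. Each was represented by the probe set annotated with its symbol alone that had the highest mean over the 44 arrays, and all 33 were found among the 18193 genes measured in this way. They comprised 6 junction and adhesion genes (Pecam1, Cdh5, Esam, Cldn5, Icam2, Ptprb), 8 receptor genes (Tie1, Eng, Robo4, Aplnr, Ednrb, Ramp2, Cd93, Clec14a) and 7 genes of secreted, matrix and surface glycoproteins (Vwf, Egfl7, Mmrn2, Emcn, Podxl, Plvap, Gpihbp1). The other members were 3 genes of signalling enzymes and adaptors (Nos3, Rasip1, Ecscr), 6 transcription factor genes (Sox7, Sox17, Sox18, Erg, Fli1, Tal2) and 3 genes that mark sinusoids (Stab1, Stab2, Lyve1), which were kept apart. The study measured RNA on Affymetrix arrays in B6C3F1 mice, a hybrid laboratory strain, given the glycol ether solvent 2-butoxyethanol (2BE) or vehicle, and the deposited intensities had been normalized with RMA. At 4 h there were 4 arrays of 2BE livers against 3 of vehicle livers, and 4 of 2BE spleens against 4 of vehicle spleens. At 7 d there were 5 arrays of 2BE livers against 4 of vehicle livers, 5 of 2BE bone marrows against 5 of vehicle marrows, and 5 of 2BE spleens against 5 of vehicle spleens. All mice were killed under ketamine and acepromazine. Liver and spleen arrays each represent a piece of the organ and marrow arrays the right humerus. The samples titled 2BE carry the words "reduced oxygen" in their treatment field, and dose, route, sex and age are not given in the sources used here.

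Endothelial cells form the inner lining of vessels and are joined to each other by cadherin and tight-junction proteins. Their identity is maintained by ETS factors such as Erg and Fli1 and by the SOXF factors Sox7, Sox17 and Sox18. In liver, spleen and marrow much of the blood passes through sinusoids, wide vessels whose lining cells take up waste molecules through scavenger receptors such as Stab1 and Stab2. 2-Butoxyethanol is known in rodents for the lysis of red blood cells by its metabolite, after which spleen and marrow make new red cells.

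Each of the 5 tissue and time sets had its own median intensity over all probe sets. Array medians were 41.2 to 42.4 in 4 h livers, 86.9 to 89.1 in 4 h spleens and 50.01 to 52.2 in 7 d livers. They were 86.1 to 89.4 in 7 d marrows and 109 to 112 in 7 d spleens. The sets may have been normalized separately, so levels were set side by side only within a set, and tissues and times were compared by their differences between 2BE and vehicle. The fat-cell gene Adipoq was above an intensity of 400 in 4 spleens, 1 of the 4 h 2BE group and 3 of the 7 d vehicle group, and each spleen result was also computed without them. The labels do not say that replicates of a group are separate animals, so the p-values measure the spread between these samples, which may be technical.

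Rank within the array was used to place each gene, as the percentage of the 18193 genes with a lower value, taken at the median of the vehicle arrays. Plvap, which forms the diaphragms of endothelial fenestrae, ranked at 96.5 and 97.4 in 4 h and 7 d vehicle spleens. The scavenger receptor gene Stab2 ranked at 86.9 and 87.6 in vehicle livers, 75.0 in vehicle marrows, and 92.7 and 96.4 in vehicle spleens. Cdh5, which encodes the cadherin of endothelial junctions, stayed near the middle of every tissue, between 49.7 in vehicle marrows and 60.6 in 7 d vehicle livers. Other members ranked very differently between tissues. Fli1, an ETS factor also made by blood cells, ranked at 20.4 and 20.9 in vehicle livers, 90.4 in vehicle marrows, and 89.4 and 92.9 in vehicle spleens. Lyve1, a hyaluronan receptor of lymphatic and some sinusoidal cells, ranked at 59.4 and 62.0 in vehicle livers but at 15.5 and 9.19 in vehicle spleens. Vwf, the von Willebrand factor of endothelium and platelets, ranked highest in vehicle marrows, at 89.6, against 47.2 in 4 h vehicle livers. Tal2 ranked low in all sets, between 10.1 in 7 d vehicle spleens and 28.2 in 7 d vehicle livers. The ranks hold all cells of the tissue, and blood cells are also known to make Pecam1, Icam2, Cd93, Vwf, Erg and Fli1.

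Promoter sequence was available for 13 of the 33 genes, as 17 windows from 250 bases before to 50 after a RefSeq start (build GRCm38.p6). The letters CAGGAA were searched on both strands as a core bound by ETS factors. By gene they occurred in 10 of the 13, some of which have several windows, and the share of all genes is not given here. By window they occurred in 11 of the 17, and in 30.55% of 32851 RefSeq windows of the same length. The ETS core CCGGAA occurred in 0 of the 17 windows and in 14.9% of all. AACAAT, a SOX core, occurred in 2 windows and in 10.72% of all, and CACACCC, a KLF core, in 2 and in 7.95%, with no overlap between the letters of these motifs required or barred. The windows of 5 genes are shown because these genes changed in spleen at both times, 3 with CAGGAA and 2 without, and capitals mark CAGGAA or TTCCTG, its reverse complement. They are those of Rasip1 (chr7:45627287-45627586, plus strand), Stab1 (chr14:31168592-31168891, minus strand), Clec14a (chr12:58269209-58269508, minus strand), Cldn5 (chr16:18776597-18776896, plus strand) and Ednrb (chr14:103843652-103843951, minus strand).
Rasip1: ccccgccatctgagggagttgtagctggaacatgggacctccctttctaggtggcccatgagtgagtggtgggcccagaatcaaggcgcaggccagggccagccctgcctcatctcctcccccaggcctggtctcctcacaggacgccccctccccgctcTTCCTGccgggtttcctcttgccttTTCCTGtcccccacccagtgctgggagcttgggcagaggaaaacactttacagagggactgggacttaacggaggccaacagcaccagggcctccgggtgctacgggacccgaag
Stab1: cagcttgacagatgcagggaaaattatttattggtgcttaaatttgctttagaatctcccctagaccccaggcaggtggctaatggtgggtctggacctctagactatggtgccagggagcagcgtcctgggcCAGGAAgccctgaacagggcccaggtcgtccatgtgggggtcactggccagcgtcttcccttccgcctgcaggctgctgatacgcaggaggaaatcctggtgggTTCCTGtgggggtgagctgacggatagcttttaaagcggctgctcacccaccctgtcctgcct
Clec14a: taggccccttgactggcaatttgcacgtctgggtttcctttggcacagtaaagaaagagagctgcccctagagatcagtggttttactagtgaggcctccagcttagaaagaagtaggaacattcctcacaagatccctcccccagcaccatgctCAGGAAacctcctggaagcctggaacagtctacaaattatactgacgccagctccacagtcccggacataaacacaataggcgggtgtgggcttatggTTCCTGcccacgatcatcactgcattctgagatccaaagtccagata
Cldn5: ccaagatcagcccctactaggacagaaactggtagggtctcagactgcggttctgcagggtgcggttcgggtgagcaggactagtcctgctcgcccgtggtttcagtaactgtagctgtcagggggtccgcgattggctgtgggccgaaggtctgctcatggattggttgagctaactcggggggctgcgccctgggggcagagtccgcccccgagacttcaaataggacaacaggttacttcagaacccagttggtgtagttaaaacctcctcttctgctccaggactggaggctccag
Ednrb: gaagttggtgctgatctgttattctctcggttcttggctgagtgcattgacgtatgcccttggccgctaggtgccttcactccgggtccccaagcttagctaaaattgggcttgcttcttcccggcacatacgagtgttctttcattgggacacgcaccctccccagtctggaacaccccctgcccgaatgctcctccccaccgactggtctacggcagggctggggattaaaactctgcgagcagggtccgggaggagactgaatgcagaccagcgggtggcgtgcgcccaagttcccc
A match describes these letters and is not a measured binding site.

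At 4 h the genes that passed the test were mostly higher in 2BE samples, with 6 higher and 1 lower in liver and 10 higher and 2 lower in spleen. At 7 d, 0 passed in liver, 1 was higher and 6 lower in marrow, and 26 were lower and 0 higher in spleen. Values below are RMA intensities on a linear scale and log2 fold changes of 2BE over vehicle on log2(intensity + 1) with their standard errors from limma, and a gene is called at a Benjamini-Hochberg adjusted p under 0.05 over all 18193 genes.

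**Figure D1:**
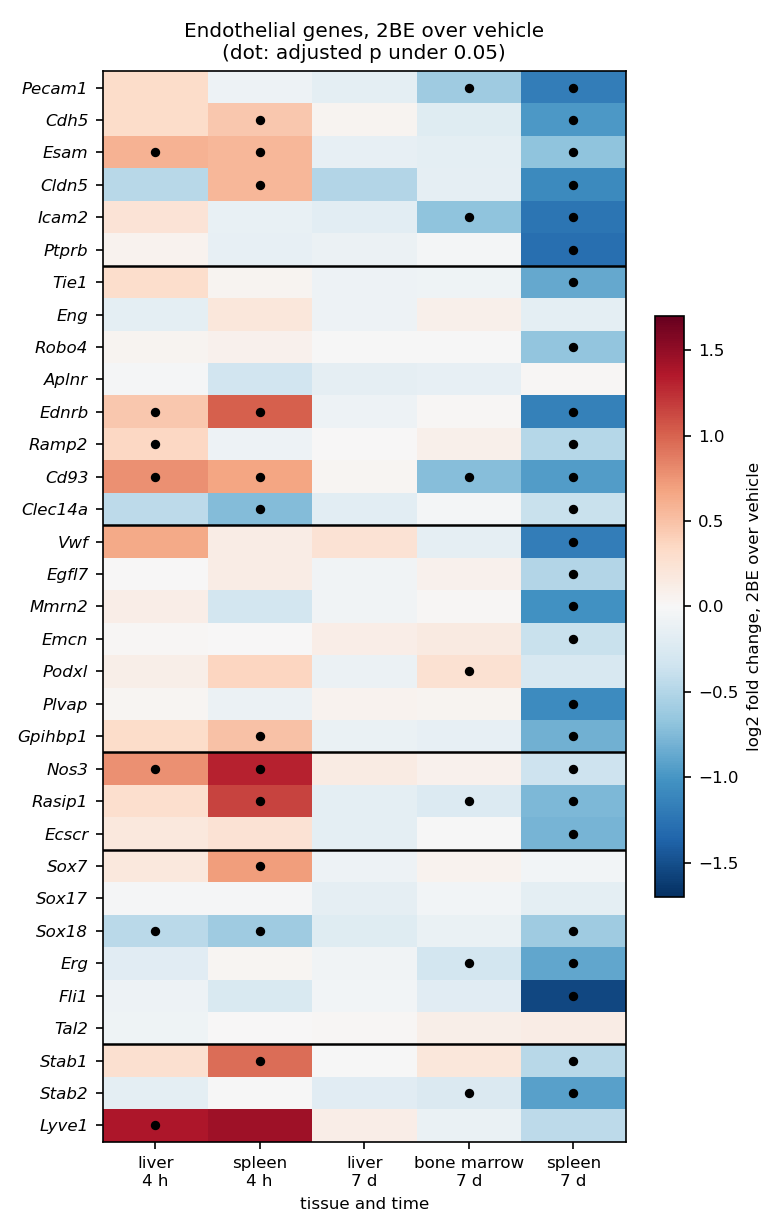
Log2 fold change of 2BE over vehicle for each of the 33 endothelial genes (rows, black lines between roles) in the 5 tissue and time sets (columns), with red for higher and blue for lower in 2BE samples. Spleen at 7 d is the column in which 31 of the 33 genes lay below 0, whereas 21 lay above 0 in spleen at 4 h.

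In liver at 4 h, 7 of the 33 genes were called, where 4.51% of all genes were. The 6 higher in 2BE livers (3.24% of all genes were called higher) were the nitric oxide synthase gene Nos3, the hyaluronan receptor gene Lyve1, the surface lectin-like gene Cd93, the junction gene Esam, the endothelin receptor gene Ednrb and Ramp2, a partner of the adrenomedullin receptor. The 1 lower (1.27% of all genes) was the transcription factor gene Sox18. The median of the 33 log2 fold changes was 0.12, and that of all genes was -0.02. Of 5 adipocyte markers 1 was called, Fabp4 (higher), which capillaries also make. The mean log2 level of the 5, which was not computed without Fabp4, was 5.58 to 5.77 in 2BE livers against 5.33 to 5.41 in vehicle livers. That of megakaryocyte and platelet markers, 0 of 7 of which were called by limma, was 5.97 to 6.26 in 2BE livers, highest in replicate 4, against 5.96 to 6.07 in vehicle livers, and the part of these cells in the result was not tested. Fewer cells of a type and less RNA per cell cannot be told apart in such tissue samples.

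Nos3 had intensities of 171, 178, 198 and 206 in 2BE livers, against 98.3, 139 and 96.0 in vehicle livers. Every 2BE liver was above every vehicle liver, with a log2 fold change of 0.77 ± 0.11, adjusted p = 0.00137. Cd93 had 111, 104, 136 and 198 in 2BE livers, against 68.8, 80.2 and 82.9 in vehicle livers. Its groups did not overlap, and replicate 4 of 2BE was the highest, with a log2 fold change of 0.78 ± 0.19, adjusted p = 0.0260, which was 0.34 with the mean over its probe sets (adjusted p = 0.0434). Esam, a junction molecule of endothelium and platelets, had 262, 255, 269 and 414 in 2BE livers, against 151, 251 and 194 in vehicle livers. Replicate 4 again stood above the other 2BE livers, which lay close together just above the vehicle livers (log2 fold change 0.59 ± 0.16, adjusted p = 0.0393). Ednrb, the endothelin receptor that is abundant on liver sinusoids, had 171, 179, 214 and 207 in 2BE livers, against 121, 169 and 134 in vehicle livers. The groups were apart, with a log2 fold change of 0.45 ± 0.11, adjusted p = 0.0311. Ramp2 had 111, 87.9, 107 and 93.5 in 2BE livers, against 65.6, 83.5 and 84.96 in vehicle livers. The groups were close but did not overlap, with a log2 fold change of 0.35 ± 0.09, adjusted p = 0.0383.

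Sox18 went the other way, at 77.5, 62.7, 74.1 and 54.3 in 2BE livers, against 78.1, 103 and 97.3 in vehicle livers. The highest 2BE liver lay just under the lowest vehicle liver, with a log2 fold change of -0.46 ± 0.13, adjusted p = 0.0499, and the call was lost with a pseudocount of 16 (adjusted p = 0.0632), with the mean over all probe sets (0.0519) and after a further quantile normalization (0.0556). Cldn5, the tight-junction claudin of endothelium, and Clec14a, a lectin-like receptor, had log2 fold changes of -0.47 and -0.45 and were not called (adjusted p = 0.0847 and 0.123). Of the 33 genes, 16 were at an unadjusted p under 0.05, and the share of all genes at that threshold is not given here. Over all 33 genes, 8 had every 2BE liver above every vehicle liver and 1 had every 2BE liver below, the 7 called genes, Cdh5 and Gpihbp1. Of all genes 11.1% had such groups, 6.6% with 2BE above and 4.49% with 2BE below. Vwf was at 68.6, 55.1, 82.6 and 269.9 in 2BE livers, against 46.4, 70.6 and 68.6 in vehicle livers. Replicate 4 of 2BE was far above the rest, and the log2 fold change of 0.65, which was not called, became 0.16 without it.

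The calls in 4 h liver rest on few arrays. Replicate 1 of vehicle was the lowest of its group for 27 of the 33 genes. Over all genes, the deviations of same-numbered 4 h livers had weak positive correlations, from 0.132 to 0.282. Among the 33 genes, replicate 2 was the highest vehicle liver for 18 and the lowest 2BE liver for 18, so a pairing by number is uncertain. With the replicate number as a block, which leaves out the unpaired 2BE replicate 4, 1 of the 7 calls remained. It was that of Nos3, at a log2 fold change of 0.73 ± 0.12 (adjusted p = 0.0166). Without vehicle replicate 1, 3 members were called, 1 higher and 2 lower, so the calls were then no longer mostly higher, and 2 of the 7 calls remained. Counts of calls were 1 without 2BE replicate 4, 3 without 2BE replicate 3 (2 higher and 1 lower) and 4 without vehicle replicate 3 (all higher). Of all genes, 2.66% were called without vehicle replicate 1, and 2.56%, 3.74% and 3.62% in the fits just named. The fold change of Ramp2 became 0.24 on the log2 scale without vehicle replicate 1 (adjusted p = 0.188). Among all genes called, 71.9% were higher, and 60.8% after a further quantile normalization.

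In spleen at 4 h, 12 of the 33 genes were called, against 5.16% of all genes, and 10 of them were higher in 2BE spleens (3.31% of all genes). The higher genes were Nos3, the lumen-forming adaptor Rasip1, Ednrb, the scavenger receptor Stab1, the SOXF factor Sox7, Cd93, the junction genes Cldn5, Esam and Cdh5, and Gpihbp1, which carries lipoprotein lipase to the capillary surface. The 2 lower genes (1.85% of all) were Clec14a and Sox18. The median of the 33 log2 fold changes was 0.08, against -0.03 for all genes.

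Nos3 had intensities of 281, 395, 307 and 313 in 2BE spleens, against 125, 99.9, 130.0 and 172 in vehicle spleens. All 2BE spleens were above all vehicle spleens, with a log2 fold change of 1.31 ± 0.13, adjusted p = 2.17e-06. Rasip1, which acts with small GTPases as vessels open their lumen, had 189, 231, 199 and 196 in 2BE spleens, against 75.4, 111, 80.7 and 101 in vehicle spleens. The groups were far apart relative to their spread (log2 fold change 1.15 ± 0.13, adjusted p = 1.03e-05). Ednrb was at 212, 356, 341 and 253 in 2BE spleens, against 149, 140.2, 98.4 and 187 in vehicle spleens. No 2BE spleen reached down to the vehicle spleens, with a log2 fold change of 1.02 ± 0.20, adjusted p = 0.00353, which was 0.57 with the mean over its probe sets (adjusted p = 0.00475). Stab1 was at 361, 402, 323 and 312 in 2BE spleens, against 169, 153, 168 and 237 in vehicle spleens. Its groups did not overlap either (log2 fold change 0.95 ± 0.12, adjusted p = 5.30e-05). Sox7 was at 177, 113, 109 and 97.2 in 2BE spleens, against 64.1, 92.2, 52.5 and 91.5 in vehicle spleens. The groups were separate, with a log2 fold change of 0.71 ± 0.19, adjusted p = 0.0327.

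Cd93 was at 1008, 913, 901 and 981 in 2BE spleens, against 559, 715, 537 and 595 in vehicle spleens. Its groups were separate, with a log2 fold change of 0.67 ± 0.14, adjusted p = 0.00570, which was 0.35 with the mean over its probe sets (adjusted p = 0.0194). Cldn5 was at 1242, 1523, 939 and 909 in 2BE spleens, against 704, 796, 722 and 825 in vehicle spleens. All 2BE spleens were above the vehicle spleens (log2 fold change 0.57 ± 0.14, adjusted p = 0.0257). Esam was at 690.0, 835, 741 and 719 in 2BE spleens, against 479.7, 482, 466 and 594 in vehicle spleens. Vehicle replicate 4 was the highest of its group and still below every 2BE spleen (log2 fold change 0.56 ± 0.10, adjusted p = 0.00182). Gpihbp1 and Cdh5 had log2 fold changes of 0.49 ± 0.13 (adjusted p = 0.0269) and 0.46 ± 0.13 (adjusted p = 0.0434). The call of Cdh5 was lost after a further quantile normalization (adjusted p = 0.0717), and that of Sox7 with the mean over its probe sets (adjusted p = 0.0548). Of 15 alternatives, counting each array left out, the call was lost in 9 for Cdh5, 8 for Sox7, 6 each for Cldn5 and Sox18, and 5 for Gpihbp1.

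Clec14a was lower, at 103, 96.9, 86.6 and 88.8 in 2BE spleens, against 144, 192, 153 and 142 in vehicle spleens. The groups did not overlap, with a log2 fold change of -0.74 ± 0.14, adjusted p = 0.00312. Sox18 was at 323, 238, 238 and 228 in 2BE spleens, against 370.4, 482, 312 and 397 in vehicle spleens. Replicate 1 of 2BE lay within the vehicle values while the other 2BE spleens were below them (log2 fold change -0.60 ± 0.15, adjusted p = 0.0219). Over all 33 genes, 10 had every 2BE spleen above every vehicle spleen and 1 had every 2BE spleen below. Of all genes 11.7% had groups that did not overlap, 4.78% with 2BE above and 6.95% with 2BE below. Without the 4 spleens with fat RNA, which are 2BE replicate 3 of this set and 7 d vehicle spleens, 9 genes were called (2.63% of all genes). Cdh5, Sox7 and Sox18 were then not called. Without 2BE replicate 3 alone, 11 genes were called (3.7% of all genes), and Sox18 was not. Without 2BE replicate 2, 7 were called (4.66% of all genes). The mural-cell markers also moved in 4 h spleens, where 3 of 8 rose, Tagln (log2 fold change 1.81), Acta2 (1.11) and Des (0.51). The mean log2 level of the mural-cell markers was 9.06 to 9.24 in 2BE spleens against 8.501 to 8.82 in vehicle spleens. The part of mural cells in the endothelial result was not tested.

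**Figure D2:**
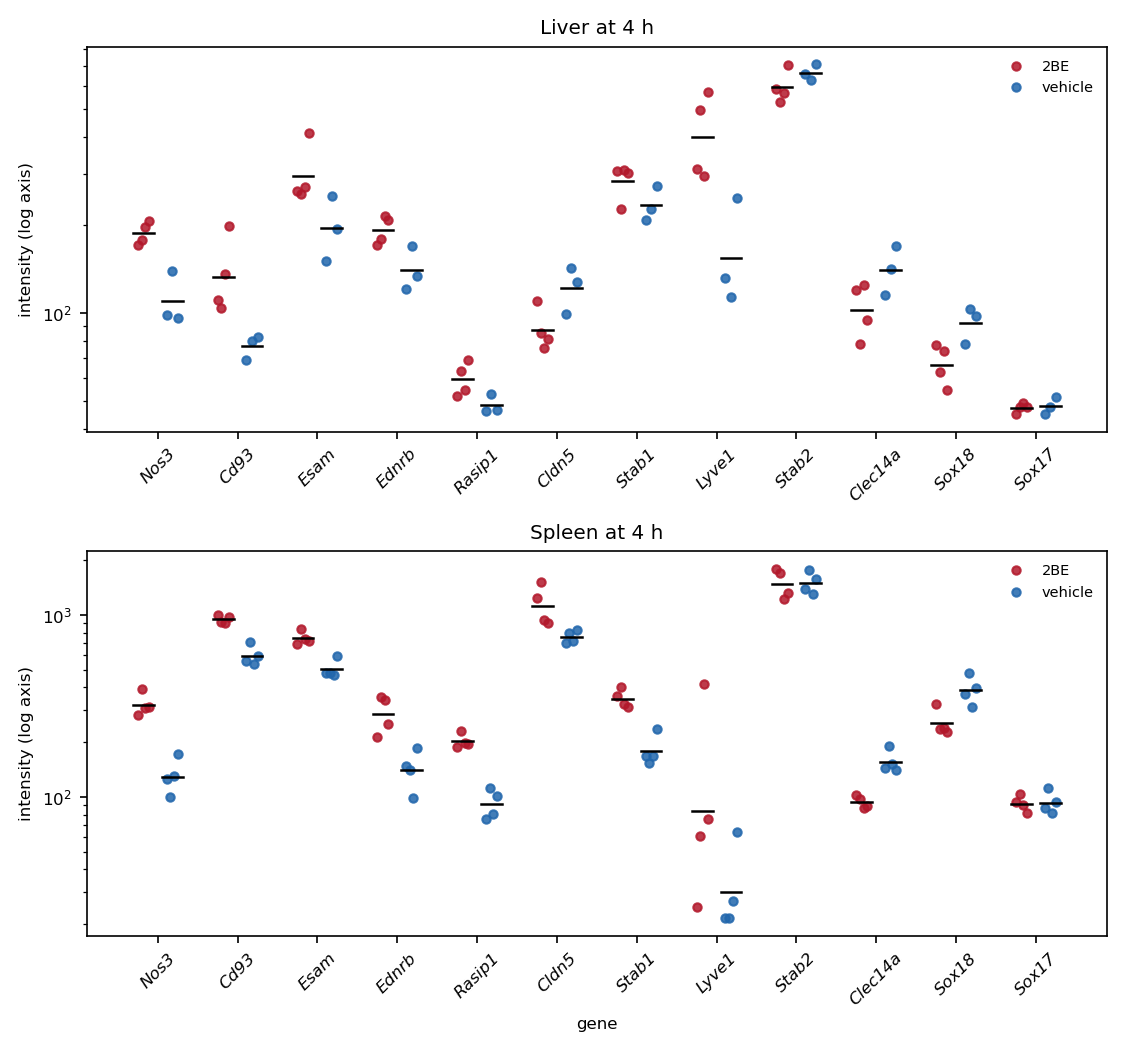
Intensity of endothelial genes on each 4 h array of liver and spleen, with 2BE (red, left) and vehicle (blue, right) and the black bar at the mean on the log2 scale. Nos3 is higher in every 2BE array of both organs, and Sox18 is lower, with 1 2BE spleen within the vehicle range.

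The 4 h calls of liver and spleen come from different arrays, but the labels do not say whether liver, spleen and marrow samples come from the same animals. In the main fit, arrays entered every comparison between tissues as independent. In the unpaired fit, Esam, Ednrb, Cd93 and Nos3 were higher in both organs, which is 66.7% of the 6 genes called higher in liver and 40% of the 10 in spleen, whereas 108 of all genes were called higher in both, 18.3% of those in liver and 17.9% of those in spleen. Sox18 was lower in both. With the replicate block in liver, the liver calls of Esam (adjusted p = 0.112), Ednrb (0.0924), Cd93 (0.0932) and Sox18 (0.157) were lost, and that of Nos3 was kept. The difference between the responses, spleen minus liver, was called for 2 of the 33 genes, both higher, against 1.78% of all genes (0.934% higher and 0.841% lower). Rasip1 differed by 0.86 ± 0.18, adjusted p = 0.0254, with log2 fold changes of 1.15 in spleen and 0.29 in liver. Cldn5 differed by 1.04 ± 0.24, adjusted p = 0.0408, being 0.57 in spleen and -0.47 in liver. Both calls were fragile: Cldn5 missed the threshold after a further quantile normalization, and 0 of the 2 remained without liver vehicle replicate 2, without liver 2BE replicate 3 or without spleen 2BE replicate 2. Exactly 1 of them remained without any 1 of liver vehicle replicate 3, liver 2BE replicates 2 and 4, spleen 2BE replicate 1, and spleen vehicle replicates 1, 2, 3 and 4.

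In liver at 7 d, limma called 0 of the 33 genes, against 0.748% of all genes. At an unadjusted p under 0.05 there were 3, and the share of all genes at that threshold is not given here. The median log2 fold change was -0.09, against -0.0013 for all genes, and 24 of the 33 values were below 0. Cldn5 came nearest to a call. It had 126, 99.6, 113, 108 and 82.2 in 2BE livers, against 139, 164, 144 and 147 in vehicle livers. The 2BE livers all lay below the vehicle livers, as they did for Esam, and such groups that did not overlap were found in 5.33% of all genes (3.05% with 2BE above and 2.28% with 2BE below). Cldn5 had a log2 fold change of -0.50 ± 0.13, adjusted p = 0.0924, and without 2BE replicate 1 it was called (-0.56, adjusted p = 0.0465). Among all genes called in this set, 67.6% were higher, and 55.2% after a further quantile normalization. Nos3 and Cd93, which were higher at 4 h, had log2 fold changes of 0.13 (95% interval -0.08 to 0.35) and 0.04 (-0.32 to 0.39) at 7 d.

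In bone marrow at 7 d, 7 of the 33 genes were called, against 20.1% of all genes, with 6 lower (10.7% of all genes) and 1 higher (9.4%). The share of the 33 called in either direction was near that of all genes. The lower genes included the cell-surface genes Cd93, Icam2 and Pecam1, the ETS factor gene Erg, Stab2 and Rasip1. Of 8 members known in blood cells (Pecam1, Eng, Icam2, Cd93, Vwf, Erg, Fli1 and Tal2), 4 were lower and 0 higher, at a median log2 fold change of -0.25. Of the other 25, 2 were lower and 1 higher, at a median of -0.03. The median of the 33 log2 fold changes was -0.04, against 0.01 for all genes.

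Cd93 had intensities of 564, 697, 553, 504 and 598 in 2BE marrows, against 955, 937, 1038, 1028 and 864 in vehicle marrows. All 2BE marrows were below all vehicle marrows, with a log2 fold change of -0.73 ± 0.08, adjusted p = 4.03e-05, which was -0.35 with the mean over its probe sets (adjusted p = 0.000171). Icam2, a ligand of leukocyte integrins, had 367, 251, 331, 313 and 357 in 2BE marrows, against 528, 466, 551, 576 and 481 in vehicle marrows. The groups did not overlap (log2 fold change -0.69 ± 0.10, adjusted p = 0.000203). Pecam1, an adhesion molecule of endothelium, platelets and leukocytes, had 271, 187, 233, 217 and 254 in 2BE marrows, against 343, 322, 357, 377 and 356 in vehicle marrows. Again no 2BE marrow reached the vehicle marrows, with a log2 fold change of -0.60 ± 0.09, adjusted p = 0.000265.

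The ETS factor gene Erg was at 272, 269.8, 230.0, 241 and 295 in 2BE marrows, against 367, 329, 298, 309 and 318 in vehicle marrows. Its groups were separate by a smaller margin, with a log2 fold change of -0.31 ± 0.08, adjusted p = 0.00964. Stab2 was at 473, 429, 434, 457 and 474 in 2BE marrows, against 497, 511, 549, 539 and 608 in vehicle marrows. The 2BE marrows were the lower throughout (log2 fold change -0.25 ± 0.06, adjusted p = 0.0102). Rasip1 was at 62.3, 49.5, 48.5, 59.1 and 59.8 in 2BE marrows, against 64.2, 67.9, 66.0, 63.8 and 64.9 in vehicle marrows. It differed least among the lower genes, with groups apart and a log2 fold change of -0.23 ± 0.07, adjusted p = 0.0349. Its call was lost in 8 of 15 alternatives, 7 of them with 1 array left out, at a limma adjusted p of up to 0.0867.

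Podxl, a sialomucin of vessel lining and of blood progenitors, was the 1 higher gene, at 111, 118, 107, 133 and 112 in 2BE marrows, against 98.5, 101, 97.0, 94.0 and 94.8 in vehicle marrows. Its groups did not overlap, with a log2 fold change of 0.26 ± 0.06, adjusted p = 0.00823, and with the mean over its probe sets the call was lost (0.15, adjusted p = 0.0740). Over all 33 genes, 1 had every 2BE marrow above every vehicle marrow and 6 had every 2BE marrow below, the 7 called genes. Of all genes 16% had such groups, 7.55% with 2BE above and 8.45% with 2BE below. Cdh5 and Cldn5 were not called, with log2 fold changes of -0.20 (95% interval -0.36 to -0.04) and -0.15 (-0.42 to 0.12). In the same marrows 7 of 7 B-cell markers were lower, at a mean log2 level of 7.55 to 8.12 in 2BE marrows against 8.997 to 9.14 in vehicle marrows, and 6 of 7 erythroid markers were higher, at 12.73 to 12.85 in 2BE marrows against 12.12 to 12.48 in vehicle marrows. The part of these cells in the values of the endothelial genes was not tested.

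**Figure D3:**
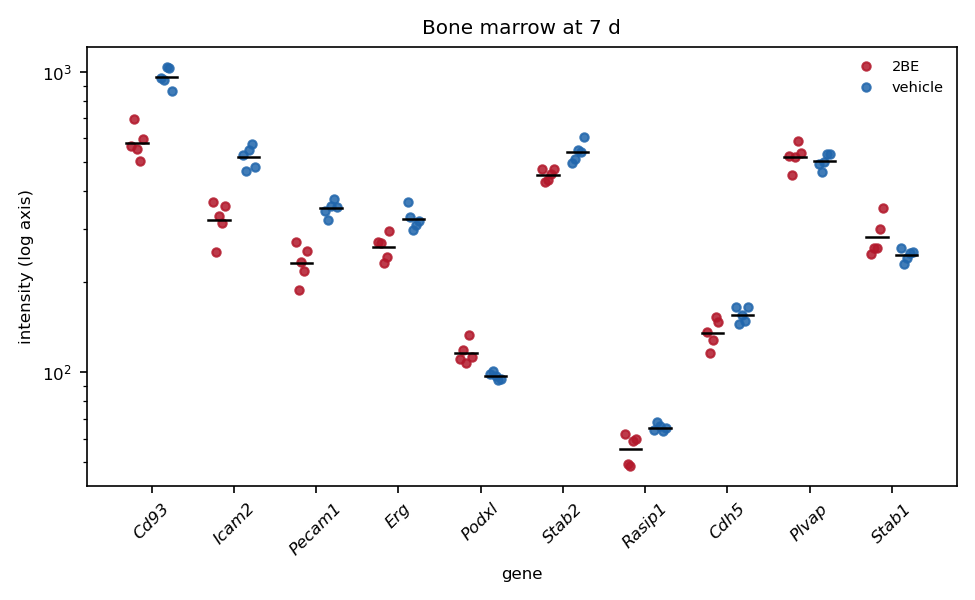
Intensity of endothelial genes on each 7 d bone marrow array, with 2BE (red, left) and vehicle (blue, right) and the black bar at the mean on the log2 scale. For Cd93, Icam2 and Pecam1 the 2BE arrays lie below every vehicle array.

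In spleen at 7 d, 26 of the 33 genes were lower in 2BE spleens and 0 were higher. The background was broad, with 64.4% of all genes called, 32% lower and 32.4% higher. The median of the 33 log2 fold changes was -0.76, against 0.05 for all genes. Of the called members 9 differed at least 2-fold, and the share of all genes that did so is not given here. All 6 junction and adhesion genes, all 3 signalling genes and 6 of 8 receptor genes were lower, as were 6 of 7 secreted and surface glycoprotein genes, 3 of 6 transcription factor genes and 2 of 3 sinusoidal genes. The groups did not overlap, with 2BE below, for 26 genes, against 26.7% of all genes (46.7% in either direction and 20% with 2BE above): 25 of the called ones, without Clec14a, and Lyve1, which was not called.

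Among transcription factors, Fli1 had intensities of 541, 374, 715, 603 and 807 in 2BE spleens, against 1810.5, 1835, 1843, 1543 and 1633 in vehicle spleens. Every 2BE spleen was far below every vehicle spleen, with a log2 fold change of -1.55 ± 0.15, adjusted p = 1.33e-07. Erg, its close relative, was also lower, at -0.89 (adjusted p = 1.42e-07), and so was Sox18, at -0.61 (adjusted p = 0.000623). Sox7, Sox17 and Tal2 were not called, with log2 fold changes of -0.05 (95% interval -0.41 to 0.31), -0.17 (-0.38 to 0.05) and 0.13 (-0.05 to 0.31).

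Among junction genes, Ptprb, a phosphatase that acts on endothelial junctions and on the angiopoietin receptor, had 383, 399.9, 607, 486 and 556 in 2BE spleens, against 1187, 977, 1302, 1127 and 1257 in vehicle spleens. The groups were separate, with a log2 fold change of -1.28 ± 0.15, adjusted p = 8.58e-07. Icam2 had 540.5, 345, 578, 498 and 636 in 2BE spleens, against 1412, 1061, 1255, 1144 and 1172 in vehicle spleens. The lowest vehicle spleen was well above the highest 2BE spleen (log2 fold change -1.24 ± 0.14, adjusted p = 4.53e-07). Pecam1 had 414, 353, 493, 444 and 585 in 2BE spleens, against 1108, 924, 1062, 1013 and 1025 in vehicle spleens. It was lower throughout, with a log2 fold change of -1.18 ± 0.12, adjusted p = 1.77e-07. Cldn5 had 444, 491, 695, 569 and 549 in 2BE spleens, against 1171, 1004, 1195, 1158 and 1218 in vehicle spleens. Vehicle replicate 2 was apart from the other vehicle spleens but above all 2BE spleens (log2 fold change -1.08 ± 0.13, adjusted p = 1.18e-06). Cdh5 had 123, 120.5, 175, 139.6 and 151 in 2BE spleens, against 251, 259.6, 300.3, 265 and 311 in vehicle spleens. Its groups did not overlap, with a log2 fold change of -0.97 ± 0.12, adjusted p = 1.00e-06. Esam completed the group at -0.68 (adjusted p = 3.61e-06).

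Among receptors, Ednrb had 136, 135, 133, 95.2 and 185 in 2BE spleens, against 333, 279, 278, 277 and 328 in vehicle spleens. The 2BE spleens were all below the vehicle spleens, with a log2 fold change of -1.15 ± 0.18, adjusted p = 1.65e-05. Cd93, Tie1 (a partner of the angiopoietin receptor), Robo4 (a roundabout receptor of endothelium), Ramp2 and Clec14a were lower too, at -0.95, -0.87, -0.67, -0.48 and -0.38 with adjusted p between 2.41e-06 and 0.0138. The TGF-beta co-receptor Eng and the apelin receptor Aplnr were not called, at -0.16 (adjusted p = 0.0623) and 0.02 (adjusted p = 0.884). Replicate 2 was the lowest vehicle spleen for 22 of the 33 genes, and among 2BE spleens replicate 1 was the lowest for 16 and replicate 5 the highest for 15.

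Among secreted and surface proteins, Vwf had 206, 190.3, 269, 232 and 246 in 2BE spleens, against 580.1, 394, 518, 502 and 587 in vehicle spleens. Its groups were separate, with a log2 fold change of -1.17 ± 0.20, adjusted p = 4.45e-05. Plvap had 1461, 1396, 1976, 1516 and 2081 in 2BE spleens, against 3615, 3252, 3699.8, 3382 and 3478 in vehicle spleens. It was lower in every 2BE spleen (log2 fold change -1.07 ± 0.11, adjusted p = 2.81e-07). Mmrn2, a matrix protein that binds Cd93 and Clec14a, had 252, 284, 307, 289 and 323 in 2BE spleens, against 622, 495, 629, 579 and 667 in vehicle spleens. The groups were separate, with a log2 fold change of -1.03 ± 0.12, adjusted p = 7.18e-07. Gpihbp1, the matrix protein gene Egfl7 and the sialomucin gene Emcn were lower at -0.81, -0.49 and -0.37, while Podxl was not called, at -0.28 (adjusted p = 0.0642). Emcn ranked low in these arrays, at 14.8 in vehicle and 10.1 in 2BE spleens by the median, and a filter on low values left it out. Of the signalling genes, Ecscr, a surface regulator of endothelial movement, was at -0.79, Rasip1 at -0.76 and Nos3 at -0.35 (adjusted p = 0.0136). Leaving out the spleens with fat RNA removed vehicle replicates 2, 4 and 5, so that only vehicle replicates 1 and 3 remained at 7 d. Then 25 genes were called, against 51.8% of all genes, and Nos3 was not (log2 fold change -0.40, adjusted p = 0.066).

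**Figure D4:**
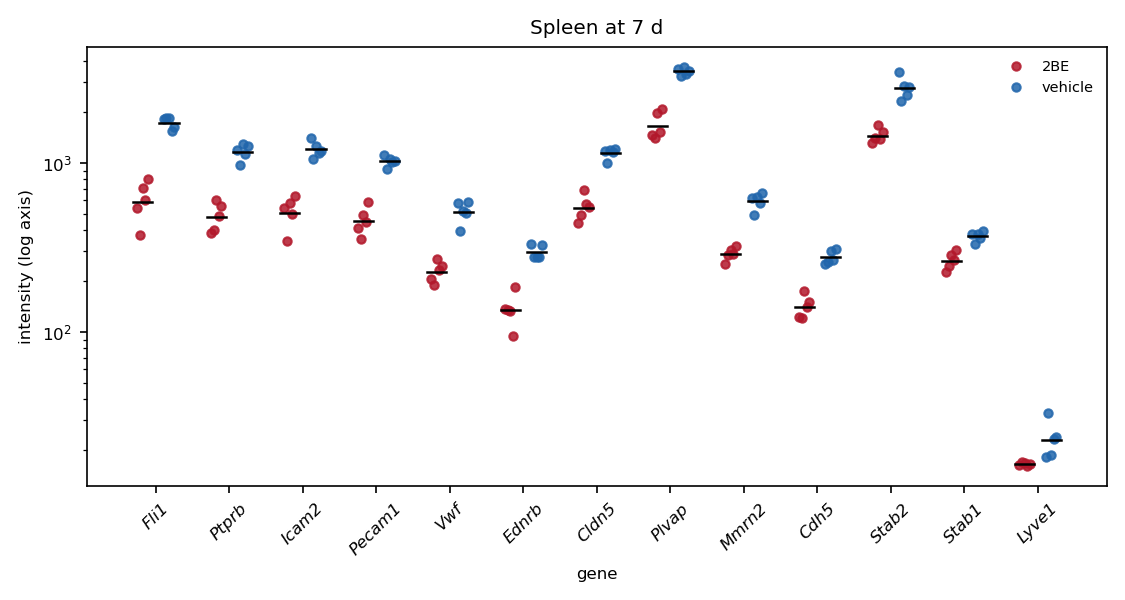
Intensity of endothelial genes on each 7 d spleen array, with 2BE (red, left) and vehicle (blue, right) and the black bar at the mean on the log2 scale. The 10 genes with the largest changes, from Fli1 to Cdh5, lie lower in all 5 2BE spleens than in any vehicle spleen.

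Markers of blood cells moved strongly in these spleens. Erythroid markers were higher for 7 of 7 genes, at a mean log2 level of 13.02 to 13.30 in 2BE spleens against 9.20 to 10.92 in vehicle spleens. B-cell markers were lower for 7 of 7, at 9.42 to 10.78 in 2BE spleens against 11.62 to 11.94 in vehicle spleens. The mean log2 level of the 33 endothelial genes was 7.66 to 7.96 in 2BE spleens against 8.39 to 8.58 in vehicle spleens. Markers of other cells of the tissue were also lower: 6 of 8 mural genes (median log2 fold change -0.86), 6 of 7 megakaryocyte and platelet genes (-0.88), 5 of 8 fibroblast genes and 7 of 10 macrophage genes, with 1 macrophage gene higher. The part of a changed cell composition in the lower endothelial values was not tested.

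**Figure D5:**
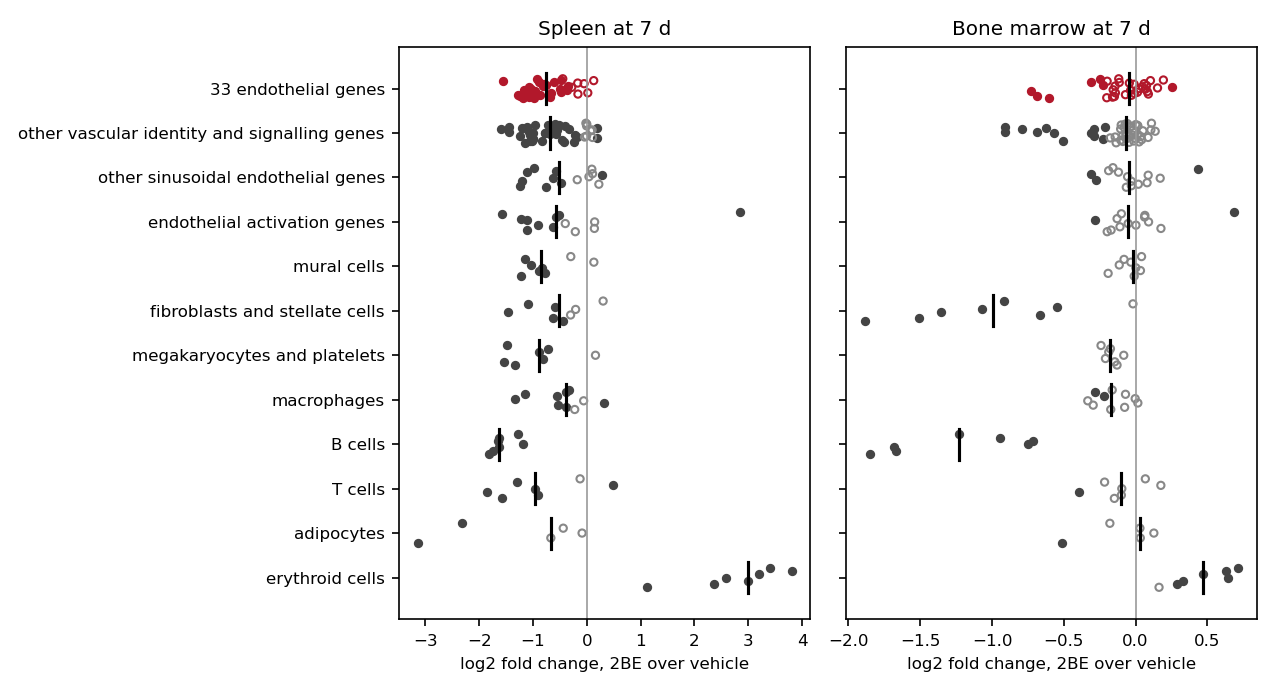
Log2 fold change of 2BE over vehicle at 7 d for single genes of the endothelial set, of related vascular lists and of cell type markers, in marrow and spleen panels with their own x scales. Filled points are called and open points are not, ticks are list medians, and in spleen erythroid genes lie to the right of 0 while most endothelial, B-cell and mural genes lie to the left.

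The change between times was tested in spleen as the 7 d response minus the 4 h response, which share no arrays. It was lower for 28 of the 33 genes, against 25.6% of all genes, and higher for 0, with 51.3% of all genes called in either direction. The genes without a call were Aplnr, Clec14a, Sox17, Sox18 and Tal2. Ednrb differed by -2.16 ± 0.26, adjusted p = 7.73e-06, having log2 fold changes of 1.02 at 4 h and -1.15 at 7 d, and by -0.89 with the mean over its probe sets. Rasip1 differed by -1.91 ± 0.17, adjusted p = 5.47e-07 and Nos3 by -1.66 ± 0.17, adjusted p = 2.31e-06. Of the 10 genes called higher at 4 h, 9 were called lower at 7 d, all but Sox7, which is 90% of the 10, whereas of all genes called higher at 4 h 50.7% were called lower at 7 d. Clec14a and Sox18 were lower at both times. In liver the same test called 0 of the 33 genes, against 0.269% of all genes, and it called 1 without 4 h vehicle replicate 2. In this test 12 of the 33 were at an unadjusted p under 0.05, and the share of all genes at that threshold is not given here. Of all genes called there, 36.7% were higher, and 47.6% after a further quantile normalization.

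At 7 d the spleen response was set against those of liver and marrow. Spleen minus liver was lower for 25 of the 33 genes, against 29.6% of all genes (57% called in either direction, 27.4% higher), and was led by Fli1, at -1.50 ± 0.24, adjusted p = 6.06e-06, and Vwf, at -1.42 ± 0.15, adjusted p = 8.22e-09. Marrow minus spleen was higher for 26, against 25% of all genes (44.9% called in either direction, 19.9% lower), led by Fli1 at 1.36 ± 0.24, adjusted p = 2.80e-05 and Ptprb at 1.25 ± 0.14, adjusted p = 1.21e-08. The 6 genes lower in marrow were all lower in spleen, as were 86.3% of all genes called lower in marrow. Pecam1 and Icam2 fell in both, by 0.60 and 0.69 on the log2 scale in marrow and by 1.18 and 1.24 in spleen.

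The 3 sinusoidal genes did not move as a group. Stab1, whose product clears modified lipoproteins and matrix fragments, was higher in 2BE spleens at 4 h (log2 fold change 0.95 ± 0.12) and lower at 7 d. At 7 d it had 225, 246, 286, 265 and 307 in 2BE spleens, against 379.9, 331, 379.9, 359 and 393 in vehicle spleens. The groups were separate (log2 fold change -0.48 ± 0.11, adjusted p = 0.00100). In 4 h liver Stab1 was at 307, 227, 308 and 302 in 2BE livers, against 208, 227 and 273 in vehicle livers. These groups overlapped (log2 fold change 0.27 ± 0.11, adjusted p = 0.195). In 7 d liver it had 263, 261, 263, 293 and 259 in 2BE livers, against 263, 247, 303 and 262 in vehicle livers (log2 fold change -0.0014 ± 0.10). In marrow it had 247, 258, 259.7, 300.0 and 352 in 2BE marrows, against 259, 229, 240.1, 249 and 251 in vehicle marrows (log2 fold change 0.19 ± 0.09). The groups overlapped in both, and neither was called.

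Stab2, a hyaluronan and waste receptor of sinusoids, was at 1305, 1403, 1672, 1385 and 1530.3 in 2BE spleens, against 3441, 2323, 2840.5, 2532 and 2799 in vehicle spleens at 7 d. It was lower in every 2BE spleen, with a log2 fold change of -0.93 ± 0.12, adjusted p = 2.77e-06. At 4 h it had 1797, 1695, 1227 and 1321 in 2BE spleens, against 1385, 1763, 1302 and 1576 in vehicle spleens (log2 fold change -0.01 ± 0.13, 95% interval -0.29 to 0.28). In 4 h liver it had 585, 528, 565 and 704 in 2BE livers, against 656, 629 and 709 in vehicle livers (log2 fold change -0.16 ± 0.09, 95% interval -0.36 to 0.04). Both sets of groups overlapped without a call. In 7 d liver it had 778, 708, 849, 790.2 and 765 in 2BE livers, against 903, 832, 999 and 827 in vehicle livers (log2 fold change -0.19 ± 0.08, 95% interval -0.37 to -0.02), again without a call.

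Lyve1 was higher in 2BE livers at 4 h, at 309.6, 496, 294 and 572 in 2BE livers, against 131, 113 and 248 in vehicle livers. The groups did not overlap (log2 fold change 1.37 ± 0.34, adjusted p = 0.0278), but the call was lost with the replicate block (1.199, adjusted p = 0.0556). In 4 h spleens it was at 24.8, 60.7, 416 and 75.3 in 2BE spleens, against 21.6, 21.5, 26.8 and 64.3 in vehicle spleens. The groups overlapped, 2BE replicate 3 carried the high value and also the fat RNA, and the log2 fold change of 1.44 ± 0.54, adjusted p = 0.144 became 0.68 without it, while without 2BE replicate 1 it was 2.01 (adjusted p = 0.0196). At 7 d Lyve1 was at 16.3, 17.1, 16.8, 16.02 and 16.5 in 2BE spleens, against 18.2, 33.2, 18.7, 23.3 and 23.8 in vehicle spleens. The vehicle spleens with the 3 highest values were those with fat RNA, and the log2 fold change of -0.45 was not called (adjusted p = 0.423). In 7 d liver it had 329, 121, 204, 226 and 155 in 2BE livers, against 241, 132, 154 and 215 in vehicle livers (log2 fold change 0.11 ± 0.30). In marrow it had 69.1, 48.5, 57.4, 60.9 and 38.0 in 2BE marrows, against 69.1, 51.1, 54.5, 64.1 and 54.7 in vehicle marrows (log2 fold change -0.12 ± 0.13). The groups overlapped in both, without a call.

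Of the 33 genes, 16 had more than 1 probe set, 58 in all, and these did not always move alike in 7 d spleen. Further probe sets of Fli1 (-1.42) and Ptprb (-1.40 and -0.46) lay below 0, as did those of Clec14a (-0.76). For Cd93 the other probe sets gave -0.94, 0.09, -0.59 and -0.01, for Cdh5 0.04 and for Ednrb -0.03 and 0.22, against the called -0.95, -0.97 and -1.15 of the probe sets used. In the other direction, Aplnr, Sox17 and Eng, without calls, had other probe sets at -0.95, -0.70 and -0.49. The second probe set of Lyve1 gave 1.00 in 4 h liver and 0.41 in 4 h spleen. With the mean over all probe sets of a gene, 30 genes were called in 7 d spleen, 29 lower and 1 higher. Of all genes 64.3% were called in that fit, and 52% of these calls were higher. The higher one was Tal2 (0.26, adjusted p = 0.00361), and Eng (-0.33), Aplnr (-0.47) and Sox17 (-0.43) were then lower. Called values that this setting moved by over 1.5 times in 7 d spleen were those of Ednrb (-0.32), Cdh5 (-0.47), Cd93 (-0.48), Mmrn2 (-0.67), Erg (-0.54) and Clec14a (-0.57), all of which were still called.

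Other vascular genes, listed for their known roles, were described beside the 33. In 4 h liver, 6 of 45 measured genes of vascular identity and signalling were higher (3.24% of all genes), among them the BMP target Id1 (log2 fold change 1.00), the forkhead factor Foxo1 (0.91), the flow-responsive factor Klf4 (0.83) and the receptor Notch4 (0.66), and 2 were lower (1.27% of all genes), the VEGF receptor gene Kdr (-0.59) and Palmd (-0.55). Of 13 endothelial activation genes, Thbd, the thrombomodulin gene, was higher at 149.97, 332, 496 and 523 in 2BE livers, against 38.1, 59.6 and 65.6 in vehicle livers. The groups were far apart, with a log2 fold change of 2.65 ± 0.34, adjusted p = 0.000623, and Icam1 was higher too (0.67). In 4 h spleen, 6 of the 45 were higher (3.31% of all genes), among them the vasoactive peptide genes Adm (1.22) and Edn1 (0.94), Klf4 (0.74) and the VEGF receptor gene Flt1 (0.73), 1 was lower (Hey1, -0.33, where 1.85% of all genes were), and 4 activation genes were higher, Procr (0.92), Plat (0.73), F3 (0.54) and Sele (0.52). Of 14 further sinusoidal genes, 0 were called by limma in 4 h liver and 1, Bmp2 (0.59), was higher in 4 h spleen. The fatty acid carrier Fabp4, made by capillaries and fat cells, was higher in liver (1.49) and in spleen (2.81), where its group held the spleen with fat RNA. The angiopoietin receptor gene Tek was not called in liver (-0.11) or spleen (-0.17), nor was Kdr in spleen (-0.45).

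At 7 d the same lists moved mostly down in spleen. Of the 45 vascular genes 35 were lower (32% of all genes) and 2 higher (32.4% of all genes), Dll4 (0.20) and Etv2 (0.20), with the flow-responsive factor Klf2 (-1.60), Id3 (-1.44), Foxo1 (-1.44), the arterial ligand Efnb2 (-1.24) and the receptor genes Kdr (-1.14) and Tek (-0.84) among the lower. Of the 14 sinusoidal genes 8 were lower, including Fcgr2b (-1.23), Dnase1l3 (-1.21), Bmp2 (-1.10) and Clec1b (-0.97), and Wnt9b (0.28) was higher. Of the 13 activation genes 8 were lower, including Esm1 (-1.57), Procr (-1.23), Icam1 (-1.11) and Thbd (-1.10). Fabp4 was lower (-2.32), in a comparison whose vehicle group held 3 spleens with fat RNA. Ackr1, a chemokine receptor of venules that red-cell precursors also make, was higher (2.84). In marrow 12 of the 45 vascular genes were lower (10.7% of all genes) and 0 higher (9.4% of all genes), led by Id3 (-0.91), Foxo1 (-0.91), Klf2 (-0.79) and S1pr1 (-0.69). The sinusoidal genes Rspo3 (-0.31) and Mrc1 (-0.28) and the activation gene Thbd (-0.28) were also lower in marrow, while Cd36 (0.44) and Ackr1 (0.68) were higher. In 7 d liver 3 of the 45 were lower (0.242% of all genes), Id1 (-1.37), Id3 (-1.19) and Smad7 (-0.68), while the activation genes Vcam1 (1.99) and Icam1 (0.81) were higher (0.506% of all genes).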

How the data were processed

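RNA of liver, spleen and bone marrow was measured on 44 Affymetrix arrays in 10 groups. The table that the authors deposited holds an intensity per probe set on a linear scale, normalized with RMA per the submitters' processing notes, in a version not given in the sources used here. Of 45101 probe sets, 34945 had exactly 1 symbol in the platform annotation and 932 had several. Where a gene had several such probe sets, the one of highest mean was used, and none was filtered for low values. Groups were taken from the sample titles.

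Intensities were analysed as log2(value + 1) with limma 3.58.1 in R 4.3.3: group means over all arrays of a tissue (for contrasts between tissues, of a time), eBayes, two-sided tests and Benjamini-Hochberg adjustment over 18193 genes, with calls at an adjusted p under 0.05. The fit was tested on simulated data. The number of arrays limits the precision. The members, lists and tests were chosen with earlier results of these data known. Per-array values were given for up to 10 members with the largest changes among those called in a comparison and for the sinusoidal genes, and other genes were named by list as the up to 4 with the largest called changes in each direction, with Kdr, Tek, Fabp4 and markers beside results. Other probe sets, Cldn5 in 7 d liver and Vwf in 4 h liver were singled out after their values were seen.

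Replicate numbers are shared between groups in the titles. Correlations of the deviations of same-numbered samples were 0.132, 0.282 and 0.146 in 4 h liver, all above 0.1, and not all above 0.1 in the other sets. The numbers were therefore taken to pair samples in 4 h liver only. Differently numbered samples were not compared, so the check does not establish a pairing.

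Alternatives were a pseudocount of 16, a filter at the lower quartile of mean level, the mean over all probe sets of a gene, a further quantile normalization, the replicate block, a fit with only the 2 groups compared and leaving out each array. Within a tissue the block was a term for each replicate number at a time. For contrasts between tissues it was a correlation between arrays of the same arm, time and number, estimated at 0.047 at 4 h and 0.056 at 7 d. Leaving out the 4 spleens with Adipoq above 400 was added after seeing the data.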

Additional observations from a re-analysis of the deposited data

Results flagged for a closer look

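Within groups of 4 or 5 arrays, 18 of 297 gene and group combinations had 1 array set apart by Dixon's criterion, and chance alone gives about 1 in 20. The gap of that array to the nearest other, divided by the range of the group, was 0.886 for Esam and 0.901 for Gpihbp1 in 4 h 2BE livers, where replicate 4 was the highest, and 0.929 for Icam2 and 1 for Robo4, where replicate 3 was. Stab1 was lowest in replicate 2 of that group (0.937). In 4 h 2BE spleens it was 0.887 for Tie1, 0.89 for Ecscr and 0.876 for Sox18, each highest in replicate 1, and 0.886 for Pecam1, highest in replicate 2. In 4 h vehicle spleens Esam was highest in replicate 4 (0.86) and Fli1 in replicate 2 (0.882). At 7 d, Stab1 was highest in replicate 4 of 2BE livers (0.897) and Eng in replicate 3 of vehicle livers (1). Esam was lowest in replicate 2 of 2BE marrows (0.812). In 2BE spleens Egfl7 was highest in replicate 3 (0.748), Robo4 lowest in replicate 1 (0.747) and Aplnr lowest in replicate 5 (0.743), and in vehicle spleens Cldn5 was lowest in replicate 2 (0.737).

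The response to 2BE differed between times or tissues by limma's test of the difference, with the 10 largest called members given per comparison. For 7 d minus 4 h in spleen, the difference on the log2 scale was -2.16 for Ednrb, -1.91 for Rasip1, -1.89 for Lyve1, -1.66 for Nos3, -1.64 for Cldn5, -1.62 for Cd93, -1.43 for Cdh5 and for Stab1, and -1.30 for Gpihbp1 and for Fli1. The difference of Lyve1 was -0.82 with the spleens with fat RNA left out (adjusted p = 0.213), -1.12 without 4 h 2BE replicate 3, -1.11 with the mean over its probe sets (adjusted p = 0.0753) and -1.43 with a pseudocount of 16 (adjusted p = 0.0613). Its call was also lost without any 1 of 4 h vehicle spleens 1, 2 and 3, 7 d vehicle spleens 2 and 5 and 7 d 2BE spleens 1, 2 and 4. With the mean over probe sets, the differences over time in spleen were -0.89 for Ednrb, -0.83 for Cd93 and -0.78 for Cdh5, all still called. For spleen minus liver at 4 h it was 1.04 for Cldn5 and 0.86 for Rasip1. For spleen minus liver at 7 d it was -1.50 for Fli1, -1.42 for Vwf, -1.19 for Ptprb, -1.12 for Plvap, -1.07 for Icam2, -1.06 for Ednrb, -1.02 for Cdh5, -1.01 for Pecam1, -0.99 for Cd93 and -0.97 for Mmrn2, and with the mean over probe sets it was -0.23 for Ednrb, -0.43 for Cd93, -0.51 for Cdh5 and -0.64 for Mmrn2, all still called. For marrow minus spleen at 7 d it was 1.36 for Fli1, 1.25 for Ptprb, 1.16 for Ednrb, 1.11 for Plvap, 1.06 for Mmrn2, 1.01 for Vwf, 0.93 for Cldn5, 0.80 for Tie1, 0.78 for Ecscr and 0.77 for Cdh5, and with the mean over probe sets 0.38 for Ednrb, 0.66 for Mmrn2 and 0.38 for Cdh5, all still called.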

How the results depend on the processing

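No member called in the main fit changed sign in that comparison under any alternative run. Aplnr in 7 d spleen, not called in the main fit at 0.02, was called at -0.47 with the mean over its probe sets (limma adjusted p = 0.00951). Genes of the other lists were not checked in this way. In 4 h liver the count of 7 called members became 1 with the replicate block and 0 with only the 2 groups compared in the limma fit. The share of all genes called fell there too, from 4.51% to 2.59% and 0.967%. In 4 h spleen the 12 became 7 with only the 2 groups compared, while the share of all genes went from 5.16% to 2.79%. The 2 called differences of spleen minus liver at 4 h became 1 after a further quantile normalization. Leaving out each array in turn gave 1 to 8 calls in 4 h liver, 7 to 12 in 4 h spleen, 0 to 1 in 7 d liver, 6 to 8 in marrow and 26 to 28 in 7 d spleen. For the response differences it gave 0 to 1 for liver over time, 26 to 29 for spleen over time, 0 to 2 for spleen minus liver at 4 h, 24 to 26 for spleen minus liver at 7 d and 26 to 27 for marrow minus spleen. Calls kept in every alternative that tested the gene were 0 of 7 in 4 h liver, 7 of 12 in 4 h spleen, 5 of 7 in marrow and 25 of 26 in 7 d spleen. The 25 include Emcn, which the filter on low values left untested, so its call was kept in 16 alternatives against 17 for the others. Outside 4 h liver the replicate block moved no count of calls by over 1.5 times, though Sox7 in 4 h spleen (adjusted p = 0.0519) and Rasip1 in marrow (adjusted p = 0.0521) lost their calls under it. Causes of these shifts were not tested, except that the paired fit of liver and those that leave out arrays hold fewer samples. A filter on low values kept 29 to 31 of the 33 genes, depending on the set. The deposited values carry no detection calls, so signal over background was not assessed.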
